A study of Mus musculus with 10 samples.

Results

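The AP-1 and early growth response factors are 10 genes, Fos, Fosb, Fosl2, Jun, Junb, Jund, Atf3, Egr1, Egr2 and Ier2, taken by symbol from the 14581 genes tested. They were covered by 14 probe sets that carry 1 gene symbol, and the probe set with the highest mean signal stood for each gene. All 10 passed the filter on dim signal. The samples are bone marrow cells of a PML-RARα transgenic mouse model of acute promyelocytic leukaemia (APL), on the FVB N/J background at 8 to 10 weeks of age. In every group the leukaemic cells carried GFP from a retrovirus, had been expanded in syngeneic recipients and were isolated by flow cytometry. SC, PD and TD are subsets of untreated marrow. RAPD and RATD come from marrow exposed to all-trans retinoic acid (ATRA), which binds RARα and makes APL cells differentiate. The ATRA dose was 10 mg/kg, and its length is 5 days in the protocol but 3 to 5 days in the source names. The labels do not spell out SC, PD and TD, and the sources used here do not name the promoter that drives the transgene. Each of the 5 groups had 2 arrays that the labels call biological replicates. Nothing says whether these came from separate animals, so the p-values measure only the spread between these arrays.

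AP-1 is a pair of basic leucine zipper proteins, formed by a Jun protein with a Fos or ATF protein or by Jun proteins alone. The early growth response (EGR) factors bind DNA through zinc fingers. Many of these genes are immediate early genes, switched on within minutes of a stimulus through MAP kinases, serum response factor and CREB-type factors without new protein synthesis. In myeloid cells, Jun proteins, Egr1 and Egr2 are known for their part in monocyte and macrophage differentiation.

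Promoter stretches are shown for the members whose windows held a searched motif upstream of the start, since these are the letters through which such factors can be bound. Of the 10 members, 8 matched the RefSeq promoter table of build GRCm38.p6. Egr1 and Ier2 had no entry. Each line gives the 150 bases before an annotated start, 5′ to 3′ on the gene's strand, with motif matches in capitals. The Fos stretch (chr12:85473740-85473889, plus strand) holds the CRE core TGACGT at positions -66 to -61 and TATAAA at -33 to -28, counted from the start. The Jun stretch (chr4:95052223-95052372, minus strand) holds a match to TGACNTCA at -45 to -38. The Atf3 stretch (chr1:191183334-191183483, minus strand) holds the CRE core on the opposite strand at -8 to -3. The Fosb stretch (chr7:19310046-19310195, minus strand) and the Fosl2 stretch (chr5:32136322-32136471, plus strand) each hold the EGR motif GCGNGGGCG, at -50 to -42 in Fosb and at -79 to -71 in Fosl2. The Egr2 stretch (chr10:67537719-67537868, plus strand) holds a CArG box, the motif of serum response factor, at -72 to -63 and the CRE core on the opposite strand at -56 to -51.
Fos: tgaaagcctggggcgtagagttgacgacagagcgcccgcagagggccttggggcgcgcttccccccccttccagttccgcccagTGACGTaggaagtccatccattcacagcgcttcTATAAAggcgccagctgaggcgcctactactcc
Jun: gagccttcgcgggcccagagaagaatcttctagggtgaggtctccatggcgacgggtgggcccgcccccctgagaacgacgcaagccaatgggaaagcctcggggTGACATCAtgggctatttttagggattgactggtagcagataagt
Atf3: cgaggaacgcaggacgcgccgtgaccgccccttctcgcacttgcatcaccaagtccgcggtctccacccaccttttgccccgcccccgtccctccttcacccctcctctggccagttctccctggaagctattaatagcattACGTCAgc
Fosb: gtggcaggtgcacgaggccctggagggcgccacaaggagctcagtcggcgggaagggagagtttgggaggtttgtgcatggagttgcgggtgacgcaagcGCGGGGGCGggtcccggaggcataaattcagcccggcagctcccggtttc
Fosl2: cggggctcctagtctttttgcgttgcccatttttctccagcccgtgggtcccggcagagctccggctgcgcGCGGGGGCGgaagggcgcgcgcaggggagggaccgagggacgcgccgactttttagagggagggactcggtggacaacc
Egr2: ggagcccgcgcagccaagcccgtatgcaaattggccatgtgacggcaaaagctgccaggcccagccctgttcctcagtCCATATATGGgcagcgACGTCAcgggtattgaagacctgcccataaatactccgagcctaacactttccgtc

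All motifs were searched on both strands of windows of 300 bases, 250 before and 50 after the start, and TGACGT overlaps TGACNTCA where the N is a G. Over 32851 such windows of 27025 genes, the CRE core TGACGT was in 7.51%, TGACNTCA in 8.83%, GCGNGGGCG in 5.55%, the CArG box in 1.63% and TATAAA in 13.6%. The 8 members had 12 windows, several of them of Egr2 and partly overlapping, of which 1 is shown. Counted by gene rather than by window, the CRE core was in 3 of the 8 members (Fos, Atf3 and Egr2). TGACNTCA was in 1 (Jun), GCGNGGGCG in 2 (Fosb and Fosl2), the CArG box in 1 (Egr2) and TATAAA in 2 (Fos and Junb). The AP-1 motif TGACTCA was in 5.20% of all windows and in 0 of the 8 members' windows. A match describes letters in a window and is no evidence of binding.

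The arrays differed in their replicate spread. Over 6329 bright genes, replicate arrays deviated with an SD (log2) of 0.158 for SC, 0.256 for TD, 0.305 for PD, 0.467 for RATD and 0.503 for RAPD. Without detection calls, a signal at or under an array's 40th percentile (log2 4.81 to 5.12) is called dim here. All 5 primary granule markers were above that level on both arrays of every group, as were 10 of 10 measured late granulocyte markers (11 listed) in PD, TD, RAPD and RATD and 8 of 10 in SC. The summed log2 level of 13 measured monocyte and macrophage markers (of 14 listed) ran from 12.9 in SC, 13.43 to 13.46 in PD and 12.49 to 12.80 in RAPD up to 15.48 to 15.66 in TD, with 14.13 to 15.29 in RATD. The late granulocyte markers summed to 17.44 to 17.49 in SC, 17.88 to 17.97 in PD, 17.51 to 18.00 in TD, 18.09 to 18.46 in RAPD and 18.05 to 18.43 in RATD. Of 7 progenitor markers, Kit, Myb and Gata2 were above the dim level on all 10 arrays, Meis1 on 7, Flt3 on 5, and Cd34 and Hoxa9 on 2. Of 4 measured B cell markers, Pax5 was above it on 5 arrays, Cd79b on 4, Ms4a1 on 3 and Cd79a on 0. Of 4 measured T and NK cell markers, Cd3d was above it on 10 arrays, Ncr1 on 6, Cd3g on 3 and Cd3e on 1. In sorted bulk cells, fewer cells of a type and less RNA per cell cannot be told apart.

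The clearest pattern was a high level of these factors in the untreated TD subset. TD exceeded PD for 8 of 10 members and SC for 7 of 10, and no member was called lower. In PD, Fos and Jun, 2 of 10 members, were called lower than in SC, near the 15.2% of all genes called lower there. Both were called lower again in RAPD than in untreated PD, where 3.19% of all genes were. The Jun call against SC was lost after quantile normalization and at a common 75th percentile of the arrays. With limma over all genes, the calls for TD against PD were 8 higher (background 18.0% of genes higher, 17.2% lower), and for TD against SC 7 higher (background 4.96% higher, 3.20% lower). The median difference of the members was 1.56 (log2) for TD against PD and 1.30 for TD against SC, against -0.13 and -0.04 over all genes. The summed monocyte and macrophage markers were also highest in TD (15.48 to 15.66), with 12.90 to 12.95 in SC and 13.43 to 13.46 in PD. Csf1r, Cd68, Apoe, Ly86, Cx3cr1, C1qa and C1qb were higher on both PD arrays than on both SC arrays. Irf8, Ctss, Msr1, Trem2, Fcgr1 and Adgre1 overlapped between PD and SC. The part of these markers in the member differences was not tested. Both comparisons use the same TD arrays. Over 14485 genes, longer genes tended to read higher in TD than in PD (Spearman's rho 0.25 across genes, which are not independent) and lower in PD than in SC (-0.26). Most members are short, with Fos at the 8.83 and Jun at the 8.02 percentile of gene length. Atf3 is at the 35.1 and Fosl2, the longest member, at the 50.1 percentile. The part of length was not tested. Without either SC array or TD replicate 1 the TD against SC count was 2, and without TD replicate 2 it was 4. Without the intensity trend of the fit it was 2.

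**Figure D1:**
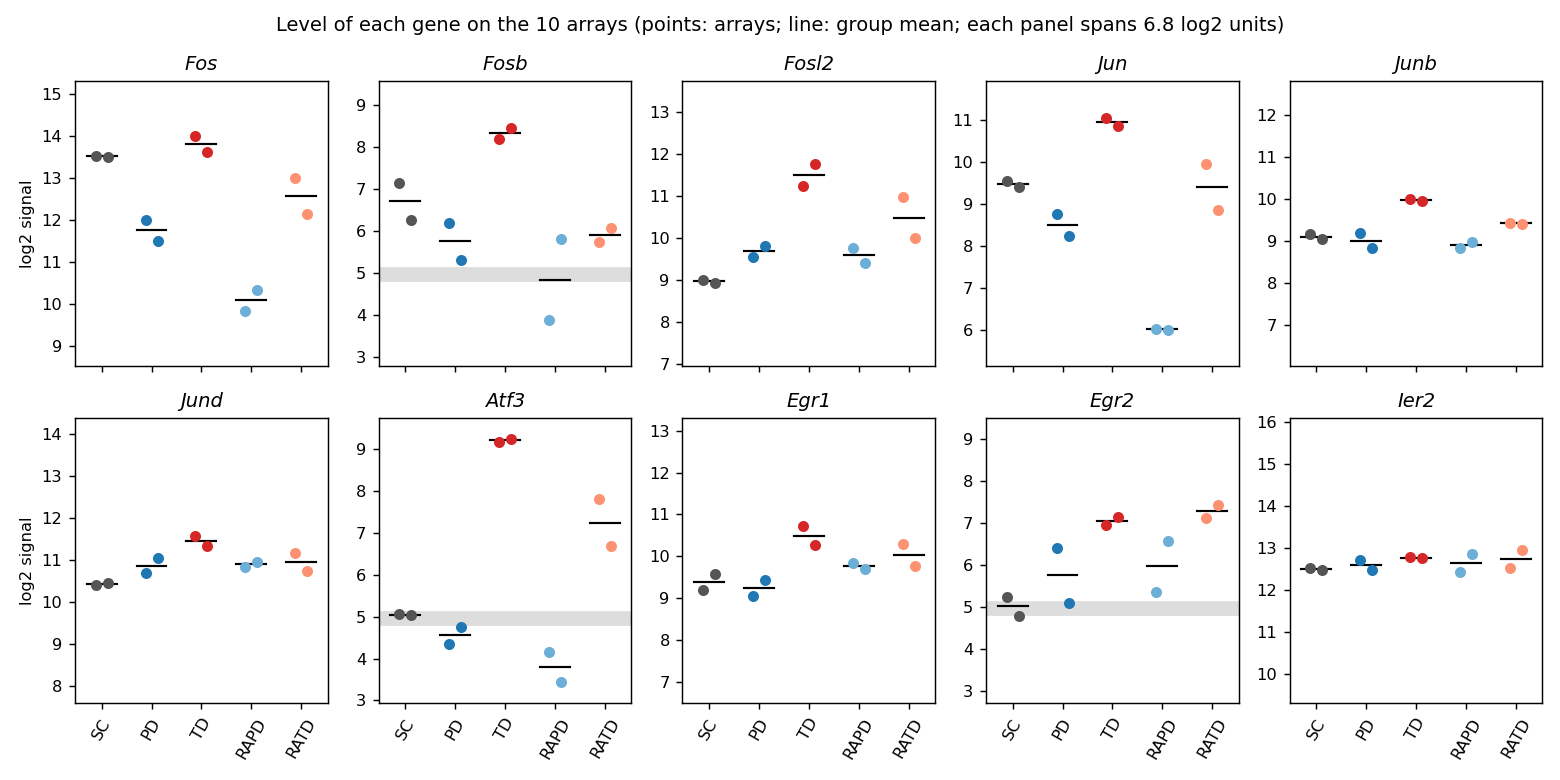
Log2 signal of the 10 members on each of the 10 arrays, one panel per gene, with the groups SC, PD, TD, RAPD and RATD along the x axis, points for single arrays and a bar for the group mean. The grey band spans the dim-signal level of the arrays (4.81 to 5.12). The Atf3 points lie in or under the band in SC, PD and RAPD and at 9.16 and 9.24 in TD, while the Ier2 points stay between 12.44 and 12.96.

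Among the Fos proteins, which need a Jun partner to bind DNA, Fos itself was bright everywhere. Its log2 signal was 13.51 on both SC arrays, 11.99 and 11.50 in PD, 14.00 and 13.61 in TD, 9.82 and 10.34 in RAPD, and 13.00 and 12.15 in RATD. The groups followed the order TD, SC, RATD, PD and RAPD, and no neighbours in that order overlapped. Fos was 3.39-fold lower in PD than in SC (log2 -1.76 ± 0.28 SE, adjusted p = 0.00191) and 4.15-fold higher in TD than in PD (2.05 ± 0.28, adjusted p = 0.000349). TD and SC could not be told apart for Fos, at 0.29 ± 0.28 with a 95% interval from -0.33 to 0.91. Fos was 3.18-fold lower in RAPD than in PD (adjusted p = 0.0102).

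Fosb, a near relative of Fos and itself an immediate early gene, was dimmer. It read 7.15 and 6.26 in SC, 6.18 and 5.31 in PD, 8.18 and 8.46 in TD, 3.88 and 5.80 in RAPD, and 5.74 and 6.06 in RATD. TD lay above all other arrays, SC followed, and PD overlapped both RATD and RAPD. TD exceeded PD 5.95-fold (2.57 ± 0.60, adjusted p = 0.00585). The TD against SC difference of 1.62 ± 0.60 missed the threshold (adjusted p = 0.132).

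Fosl2 encodes Fra-2, a further Fos protein. It read 8.99 and 8.92 in SC, 9.55 and 9.80 in PD, 11.24 and 11.75 in TD, 9.76 and 9.40 in RAPD, and 10.97 and 9.99 in RATD. SC was the lowest group, which sets Fosl2 apart in order from Fos, Fosb and Jun. TD exceeded SC 5.81-fold (2.54 ± 0.30, adjusted p = 0.000326) and PD 3.53-fold (1.82 ± 0.30, adjusted p = 0.000772). A further Fosl2 probe set read 5.72 and 4.0 in SC and 6.55 and 5.59 in PD, against 7.57 and 7.50 in TD. With it, TD against PD was not called (adjusted p = 0.0686).

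Jun, the AP-1 core subunit, had the lowest RAPD level relative to the other groups. Its signal was 9.54 and 9.41 in SC, 8.75 and 8.25 in PD, 11.06 and 10.86 in TD, 6.02 and 6.00 in RAPD, and 9.94 and 8.86 in RATD. RAPD stood below every other array, and SC and RATD overlapped. TD exceeded PD 5.50-fold (2.46 ± 0.32, adjusted p = 0.000269) and SC 2.80-fold (1.48 ± 0.32, adjusted p = 0.0142). RAPD was 5.62-fold below PD (-2.49 ± 0.32, adjusted p = 0.00209). The lower level in PD than in SC (-0.97 ± 0.32, adjusted p = 0.0412) was close to the threshold and was not seen in a further Jun probe set, which read 7.08 and 7.43 in SC and 7.14 and 7.43 in PD. That probe set did show TD above PD, at 9.07 and 9.02, and RAPD at 5.61 and 5.36. With it, the Jun calls for RAPD against PD (-1.80) and for TD against SC (1.79) were lost.

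Junb, a Jun protein that can restrain Jun, moved over a narrower range. It read 9.17 and 9.04 in SC, 9.20 and 8.83 in PD, 10.01 and 9.95 in TD, 8.85 and 8.99 in RAPD, and 9.44 and 9.41 in RATD. TD lay above RATD and RATD above the rest, where PD overlapped both SC and RAPD. TD exceeded SC 1.84-fold (0.88 ± 0.20, adjusted p = 0.019) and PD 1.96-fold (0.97 ± 0.20, adjusted p = 0.00285). Jund, the Jun protein that is present without a stimulus, read 10.39 and 10.45 in SC, 10.68 and 11.04 in PD, 11.57 and 11.32 in TD, 10.83 and 10.95 in RAPD, and 11.16 and 10.73 in RATD. TD was highest and SC lowest, with PD, RAPD and RATD overlapping between them. Jund was 2.03-fold higher in TD than in SC (1.02 ± 0.20, adjusted p = 0.00808) and 1.5-fold higher than in PD (0.59 ± 0.20, adjusted p = 0.0368). The latter call was lost under 9 of 18 alternatives, with 0.13 (adjusted p = 0.651) at a common 75th percentile of the arrays, where the Junb call against PD was lost too (0.52, adjusted p = 0.0858). A further Jund probe set was above the dim level on 3 of 10 arrays and gave 0.040 for TD against PD (adjusted p = 0.982).

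Atf3, a stress-induced basic leucine zipper factor that pairs with Jun proteins, had the widest range of the members relative to all genes. It read 5.05 on both SC arrays, 4.34 and 4.76 in PD, 9.16 and 9.24 in TD, 4.15 and 3.43 in RAPD, and 7.80 and 6.68 in RATD. PD and RAPD were dim on both arrays, and no groups that neighbour each other in level overlapped. TD exceeded SC 17.8-fold (4.15 ± 0.49, adjusted p = 0.000369). This fold rests on SC signals just above the dim-signal levels of the SC arrays (4.85 and 4.81). TD exceeded PD at least 20.0-fold and RATD exceeded RAPD at least 4.81-fold, with the dim group set at the dim-signal level (adjusted p = 0.000112 and 0.00488). The SD of the group means of Atf3 stood at the 99.5 percentile of all genes, that of Jun at 98.9, that of Fos at 97.4 and that of Ier2 at 1.64.

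**Figure D2:**
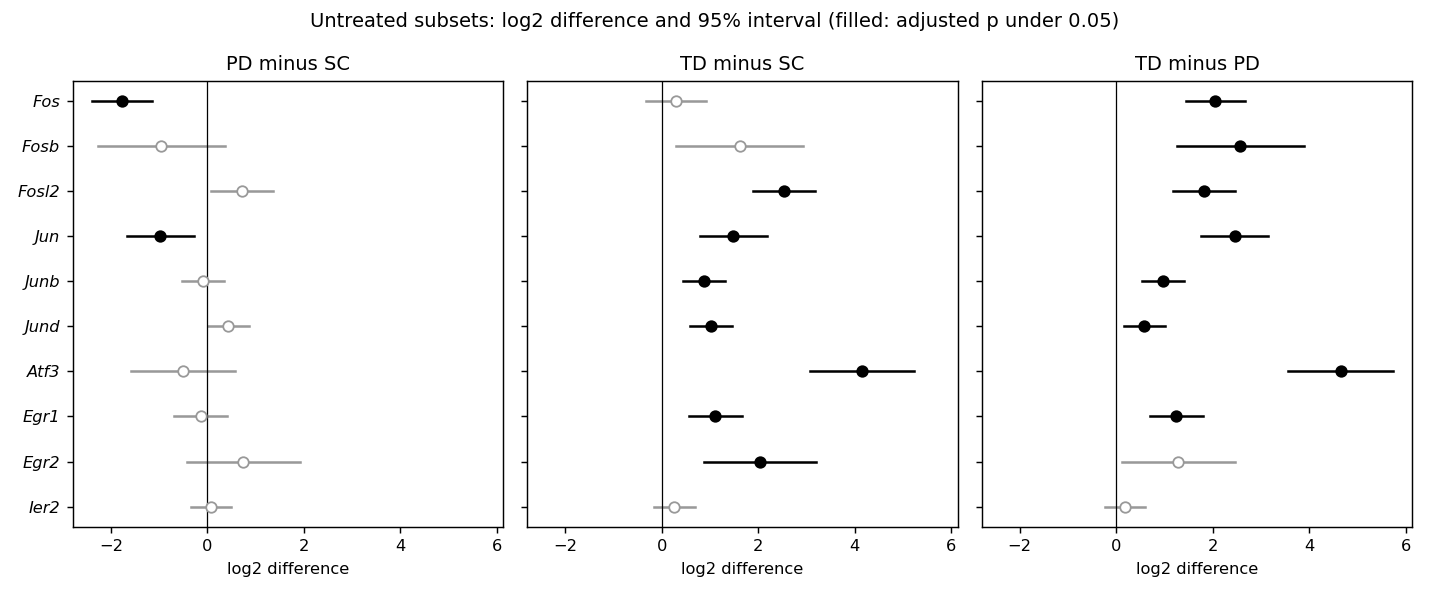
Log2 differences between untreated subsets for the 10 members, with bars for the 95% interval of the fit and filled points for calls, for PD against SC, TD against SC and TD against PD. All 10 points lie right of 0 for TD against SC and for TD against PD, from 0.18 (Ier2) to 4.65 (Atf3) in the latter.

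Egr1, an inducible zinc-finger factor, read 9.20 and 9.58 in SC, 9.07 and 9.43 in PD, 10.73 and 10.26 in TD, 9.84 and 9.71 in RAPD, and 10.29 and 9.76 in RATD. SC overlapped PD, and RATD overlapped both TD and RAPD. TD exceeded PD 2.37-fold (1.25 ± 0.25, adjusted p = 0.00245) and SC 2.16-fold (1.11 ± 0.25, adjusted p = 0.0186). Egr2, its relative with a part in macrophage and lymphocyte biology, was dimmer. It read 5.24 and 4.78 in SC, 6.41 and 5.11 in PD, 6.96 and 7.14 in TD, 5.37 and 6.57 in RAPD, and 7.13 and 7.43 in RATD. Unlike the other members, its highest group was RATD, which overlapped TD. TD exceeded SC (2.04 ± 0.53, adjusted p = 0.0366), while TD against PD, at 1.29 ± 0.53, missed the threshold (adjusted p = 0.083). The call against SC was fragile. It was lost after quantile normalization, without the dim filter, without the intensity trend and with the replicate number in the fit. A further Egr2 probe set was at or under 5.29 in SC, PD and RAPD and read 6.96 and 6.76 in TD and 7.09 and 6.68 in RATD. With it, TD against PD was called (2.48), with PD dim on both arrays.

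Ier2, a small nuclear protein of the immediate early response, was bright and nearly level. It read 12.52 and 12.48 in SC, 12.70 and 12.46 in PD, 12.78 and 12.75 in TD, 12.44 and 12.86 in RAPD, and 12.53 and 12.96 in RATD. No comparison called it. The TD against PD difference had a 95% interval from -0.24 to 0.60.

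PD against SC called 0 members higher and 2 lower, Fos and Jun, which is near the background of 10.6% higher and 15.2% lower. The members' median was -0.11 against 0.20 over all genes. Fosl2 leaned the other way without a call (0.72 ± 0.30, adjusted p = 0.0973). The split depended on the scaling, with 1 higher and 1 lower after quantile normalization and 2 higher and 1 lower at a common 75th percentile. The Jun call was lost under both (-0.59, adjusted p = 0.192, and -0.57, adjusted p = 0.155), and Fosl2 was called higher under both (adjusted p = 0.0261 and 0.00493). Leaving out any one of the SC, PD or TD arrays left 1 call, and 3 were left without either RATD array.

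ATRA-treated cells were compared with untreated cells of the subset of the same name. In PD, Fos and Jun fell and 8 members were not called (2 lower and 0 higher, background 3.19% lower and 4.86% higher). The members' median of -0.09 was near the -0.01 of all genes. Egr1 read higher by 0.52 ± 0.25 without a call (adjusted p = 0.206), and the Jund interval ran from -0.40 to 0.46. The count was 1 without PD replicate 1 or RAPD replicate 1, and 3 without RAPD replicate 2, when Fosb was called too. Without the intensity trend it was 0. The monocyte and macrophage markers were mixed between RAPD and PD. Their sum was lower in RAPD (12.49 to 12.80) than in PD (13.43 to 13.46). Their median was not lower (6.85 to 7.26 in RAPD, 5.60 to 6.995 in PD). Csf1r, Cd68, Adgre1 and Cx3cr1 were lower on both RAPD arrays than on both PD arrays. Irf8, Ctss, Trem2, Apoe, Ly86 and C1qa were higher on both, and Msr1, Fcgr1 and C1qb overlapped. The summed late granulocyte markers were higher in RAPD (18.09 to 18.46) than in PD (17.88 to 17.97). Ltf, a secondary granule protein among the late granulocyte markers, read 11.37 and 10.76 in PD and 14.63 and 15.02 in RAPD. Ngp, Lcn2, Mmp8, Mmp9 and Cd177 were also higher on both RAPD arrays than on both PD arrays. Camp, Chil3, S100a8 and S100a9 overlapped between RAPD and PD. The part of either marker list in the Fos and Jun differences was not tested.

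In TD, limma called 0 members after ATRA (background 0.192% higher and 0.0960% lower), against 7 lower with an unadjusted p under 0.05, where 5.18% of all genes were. The median of the 10 members was -0.78, against -0.01 over all genes, and 9 of 10 had a lower mean in RATD. Both RATD arrays lay below both TD arrays for Fos, Fosb, Fosl2, Jun, Junb, Jund and Atf3, 7 of 10, where 20.3% of all genes did. The differences were -2.42 ± 0.60 for Fosb (adjusted p = 0.131), -1.96 ± 0.49 for Atf3 (adjusted p = 0.137), -1.56 ± 0.32 for Jun (adjusted p = 0.0739) and -1.23 ± 0.28 for Fos (adjusted p = 0.11). For Egr2 the interval ran from -0.94 to 1.39 and for Ier2 from -0.44 to 0.40. Without RATD replicate 1, Fos, Fosl2, Jun and Atf3 were called lower. RATD replicate 2 was below replicate 1 for 7 of 10 members (median -0.48) and for 13 of 13 monocyte and macrophage markers (median -1.36). Late granulocyte markers were lower in replicate 2 for 1 of 10, and all genes for 50.9%. The late granulocyte sum was 18.05 to 18.43 in RATD and 17.51 to 18.00 in TD. The part of these markers in the member differences was not tested.

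**Figure D3:**
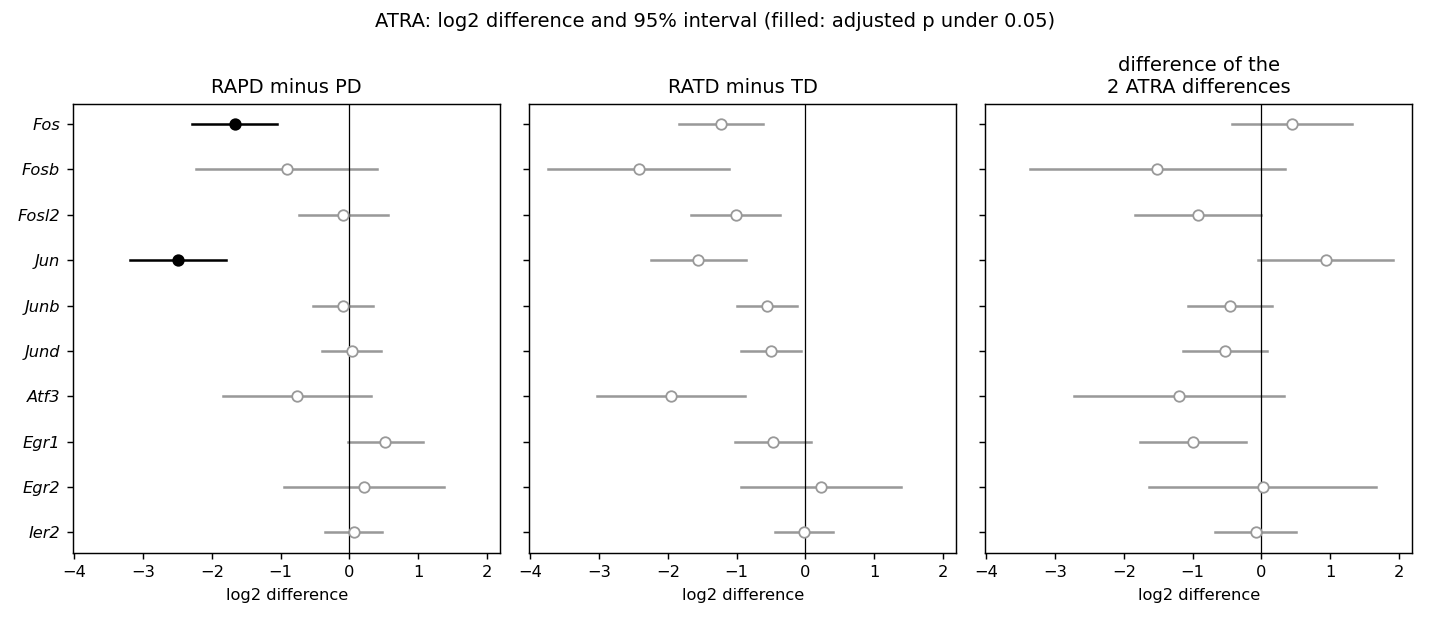
Log2 differences of the 10 members after ATRA, with 95% intervals of the fit, for RAPD against PD, RATD against TD and the difference between both. Filled points are called. Jun stands at -2.49 in PD and -1.56 in TD, and Atf3 at -1.96 in TD.

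Between the treated subsets, Fos, Jun and Atf3 were higher in RATD than in RAPD, 3 higher and 0 lower (background 2.65% higher and 2.13% lower). Jun differed 10.5-fold (3.39 ± 0.32, adjusted p = 0.000428) and Fos 5.65-fold (2.50 ± 0.28, adjusted p = 0.00123). With the further Jun probe set, the Jun difference was smaller and not called (1.82, adjusted p = 0.0686). Fosl2 (0.90 ± 0.30), Junb (0.51 ± 0.20) and Egr2 (1.31 ± 0.53) read higher without a call. The ATRA difference in TD was then set against that in PD. By limma, 0 members were called (background 0.0617% higher and 0.178% lower), with 2 lower at an unadjusted p under 0.05, where 8.65% of all genes were. These were Egr1 (-0.99 ± 0.35, adjusted p = 0.247) and Fosl2 (-0.92 ± 0.42, adjusted p = 0.329). Jun was at 0.93 ± 0.45 (adjusted p = 0.353), so its fall in PD and its lower reading in TD were not shown to differ.

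The genes around these factors were taken in 6 lists, and their counts stand beside the shares of all genes called higher and lower. These were 10.6% and 15.2% for PD against SC, 4.96% and 3.20% for TD against SC, and 18.0% and 17.2% for TD against PD. They were 4.86% and 3.19% for RAPD against PD, 0.192% and 0.0960% for RATD against TD, and 2.65% and 2.13% for RATD against RAPD. Of 14 tested other immediate early genes (15 listed), 6 were higher and 0 lower in TD than in SC, and 8 were higher and 1 lower in TD than in PD, with a median of 1.03 in the latter. Klf2 and Klf4, zinc-finger factors of myeloid and endothelial cells, were higher in TD than in SC by 3.28 ± 0.23 (adjusted p = 1.08e-05) and 3.73 ± 0.31 (adjusted p = 3.07e-05). Zfp36, which speeds decay of cytokine mRNAs, was higher in TD than in PD by 2.73 ± 0.19 (adjusted p = 9.54e-06). Dusp1, a phosphatase that switches MAP kinases off, was lower in PD than in SC by log2 -2.48 ± 0.26 and was the 1 gene of the 6 lists called in RATD against TD (-2.28 ± 0.26, adjusted p = 0.00818). RAPD against PD gave 3 higher and 2 lower of these genes, and RATD against RAPD 5 higher and 0 lower. Nr4a1, an orphan nuclear receptor, was higher in RATD than in RAPD by 2.01 ± 0.28 (adjusted p = 0.00433).

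Of 15 tested partners of the basic leucine zipper class (16 listed), 2 were higher and 0 lower in TD than in SC (background 4.96% and 3.20%). In TD against PD, 2 were higher and 3 lower (background 18.0% and 17.2%). Maf, a large Maf protein of macrophages, was higher in TD than in SC by 5.27 ± 0.40 (adjusted p = 1.56e-05) and at least 36.2-fold higher than in PD. In SC, Maf was above the dim level on only 1 of 2 arrays (mean 4.78). Atf5 was higher in PD than in SC (1.25 ± 0.22, adjusted p = 0.00244) and lower in RAPD than in PD (-1.46 ± 0.22, adjusted p = 0.00637). Atf2 was lower in PD than in SC by log2 -2.87 ± 0.42 (adjusted p = 0.00156). Of 3 tested EGR relatives and corepressors (4 listed), Nab1, a repressor of EGR activity, was lower in PD than in SC (-2.14 ± 0.36) and higher in TD than in PD (2.37 ± 0.36) and in RAPD than in PD (1.35 ± 0.36, adjusted p = 0.0439).

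Upstream, SRF and its cofactors gave 0 calls of 6 in TD against SC and 2 higher in TD against PD, Elk4 (1.24 ± 0.24) and Mrtfb (0.74 ± 0.21). Of 10 tested MAP kinases and MAP kinase-linked kinases (14 listed), 0 were called in TD against SC. PD against SC gave 3 higher and 5 lower, among them Map2k4 (-1.62 ± 0.25) and Rps6ka3 (-2.04 ± 0.35). TD against PD gave 5 higher and 1 lower. Of all genes, 10.6% were called higher and 15.2% lower in PD against SC, and 18.0% and 17.2% in TD against PD.

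Of 13 tested genes known to be driven by AP-1 or EGR factors (16 listed), 6 were higher and 0 lower in TD than in PD (background 18.0% and 17.2%). In TD against SC, 5 were higher and 0 lower (background 4.96% and 3.20%). Ptgs2, which makes prostaglandin precursors, was at least 22.2-fold higher in TD than in PD (adjusted p = 8.8e-05) and at least 12.8-fold lower in PD than in SC (adjusted p = 0.00123). Tnf was higher in TD than in SC by 2.10 ± 0.25 (adjusted p = 0.000347), and the adhesion receptor Cd44 was higher in TD than in PD by 1.78 ± 0.19 (adjusted p = 0.000112). In RAPD, 4 of these genes were higher and 0 lower than in PD (background 4.86% and 3.19%). Mmp9, a matrix protease of neutrophil granules, was higher by 6.22 ± 0.55 (adjusted p = 0.000299), and Plau by 2.77 ± 0.54 (adjusted p = 0.0174). Mmp9 is also among the late granulocyte markers used here. RATD against RAPD gave 3 higher and 0 lower, among them Ccl2, a monocyte chemokine, at least 4.10-fold higher. Several of these genes also mark monocytes or granulocytes, and what moved them was not tested.

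**Figure D4:**
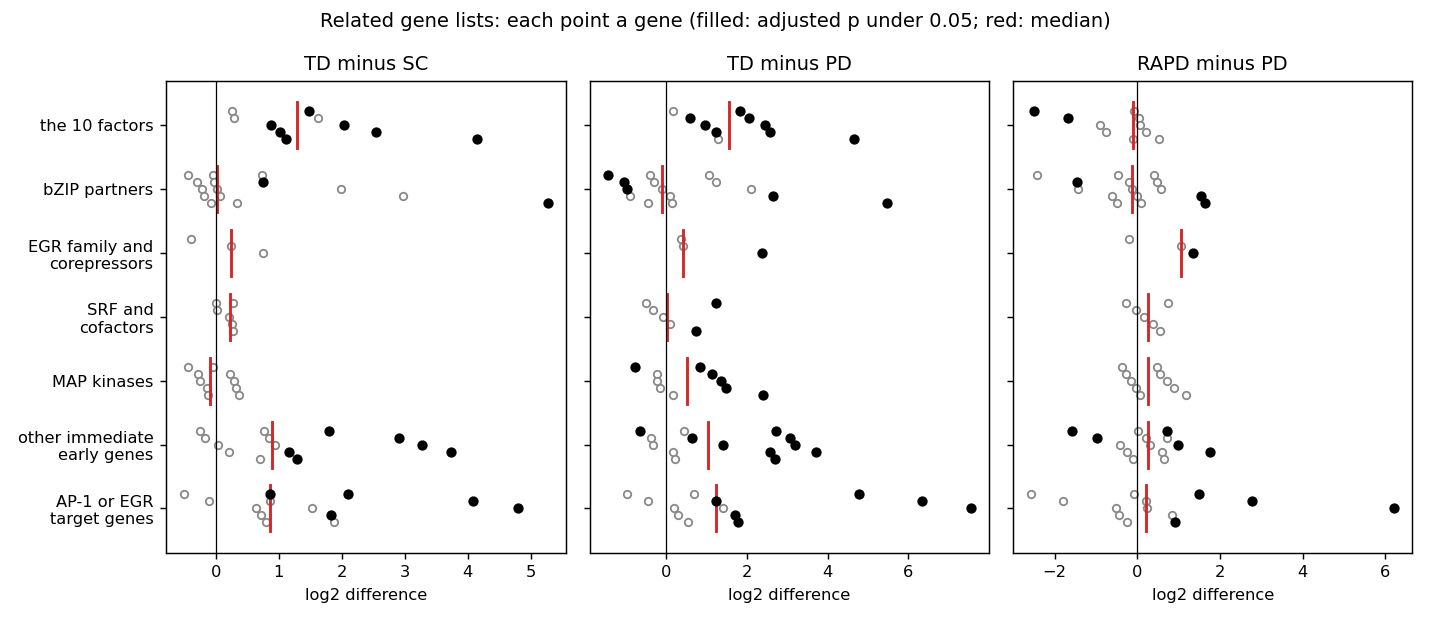
Log2 differences of every tested gene of the 6 lists and of the 10 factors for TD against SC, TD against PD and RAPD against PD. Each point is a gene, filled where called, and red marks the median of a list. The other immediate early genes (median 1.03) and the targets (median 1.23) lie mostly right of 0 for TD against PD.

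The members' profiles over the 10 arrays were also set against each other and against other genes, as descriptions of 10 arrays that fall into 5 groups. The highest Pearson correlation between members was 0.96, for Fos and Jun, and Junb with Atf3 reached 0.93. Fos and Ier2 were lowest, at 0.05. Among 13072 genes, Fos was most like Kif9 (0.98), Dync2h1 (0.97), Ahi1 (0.96), Jun (0.96) and Prpsap2 (0.95). The genes most like Jun were Fcgrt (0.98), Kif9 (0.97), Fos (0.96), Cstf2t (0.96) and Haao (0.96). The genes most like Egr1 were Abcg3 (0.98), Slc6a6 (0.96), Usp3 (0.95), Pld2 (0.94) and Ube4a (0.93), and those most like Junb were Vps9d1 (0.96), Il7r (0.96), Fblim1 (0.95), Foxq1 (0.95) and Trim8 (0.94).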

How the data were processed

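The authors deposited log2 signals of 45037 probe sets on 10 arrays, made with MAS5 per the submitters' processing notes. The MAS5 version and the genome build are not given in the sources used here, and the log2 scale was judged from the values. The deposited scaling was kept. Probe sets above the 40th percentile of their array on at least 2 arrays were kept (32686). Among those with exactly 1 gene symbol (34945 of all, 932 with several, 9160 with none), the one of highest mean stood for a gene. A group dim on both arrays gives an "at least" fold, computed against the dim-signal level.

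In R 4.3.3, limma 3.58.1 (lmFit, eBayes with trend) was run on all 10 arrays in 1 fit of 5 group means, with 5 residual and 6.57 prior degrees of freedom. The fit takes the spread as equal in all groups. Tests were two-sided, with Benjamini-Hochberg adjustment over 14581 genes and calls at an adjusted p under 0.05. Precision is limited by having 2 arrays per group. The members and lists were chosen with earlier results of these data known. All 10 members are described. From each of the 6 lists, the 2 called genes of smallest p per comparison could be named, and not all are printed. Like genes are the 5 of highest Pearson correlation with Fos, Jun, Egr1 and Junb. Alternatives changed the scaling, the filter, the intensity trend, the choice of probe set, array weights, the arrays fitted and the replicate block, and left out each array in turn.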

Additional observations from a re-analysis of the deposited data

Results flagged for a closer look

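By the interaction test, the ATRA difference in TD minus that in PD was called for 3 genes of the surrounding lists and for 0 of the 10 members. Of all genes, 0.0617% were called higher and 0.178% lower. Klf2 differed by -3.01 ± 0.33 (adjusted p = 0.00457), with 1.75 in PD and -1.25 in TD. Zfp36 differed by -1.54 ± 0.27 (adjusted p = 0.0455), with 0.64 in PD and -0.91 in TD. Atf5 differed by 1.83 ± 0.31 (adjusted p = 0.0434), with -1.46 in PD and 0.37 in TD. Groups of 2 arrays allowed no search for a single deviating array.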

How the results depend on the processing

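The number of members called was 2 for PD against SC, 7 for TD against SC, 8 for TD against PD, 2 for RAPD against PD, 0 for RATD against TD, 3 for RATD against RAPD and 0 for the interaction. PD against SC gave 4 with array weights, 4 with only the groups compared in the fit, and 1 each without the filter, without the intensity trend and with other probe sets. Without the trend, TD against SC gave 2 and RAPD against PD gave 0, and with other probe sets RAPD against PD gave 1. RATD against RAPD gave 2 without the trend, with only the groups compared and with other probe sets. With arrays set to a common 75th percentile, RATD against TD gave 1, TD against PD gave 6 (Junb and Jund lost) and PD against SC gave 2 higher and 1 lower. Leaving out single arrays gave 1 to 3 for PD against SC, 2 to 8 for TD against SC, 7 to 8 for TD against PD, 1 to 3 for RAPD against PD, 0 to 4 for RATD against TD, 3 to 4 for RATD against RAPD and 0 for the interaction. With other probe sets, the called Jun difference of PD against SC turned to 0.030 and the called Jund difference of TD against SC to -0.38. The causes were not tested.

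The replicate numbers are shared by the labels of all groups. The correlation between groups of replicate deviations ran from -0.50 to 0.10, so no pairing was taken. With the replicate block, the counts were 2 for PD against SC, 6 for TD against SC, 7 for TD against PD, 2 for RAPD against PD, 0 for RATD against TD, 3 for RATD against RAPD and 0 for the interaction. Quantile scaling moved the median of all genes for PD against SC from 0.20 to 0.31, and a common 75th percentile moved it to 0.60. For TD against PD it moved from -0.13 to -0.33 and -0.58. The share of calls that were higher went from 41.2% to 54.0% and 72.9% for PD against SC, and from 51.1% to 39.5% and 27.7% for TD against PD. For RAPD against PD it went from 60.4% to 55.7% and 34.8%. The dim levels of Atf3 in PD and RAPD limit its folds to bounds.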
